A study of Mus musculus with 24 samples.

Results

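The GIMAP genes are a family of GTPases, and the 8 members that the count tables list as Gimap1, Gimap3, Gimap4, Gimap5, Gimap6, Gimap7, Gimap8 and Gimap9 are described here out of 55376 genes. They were chosen by symbol, and the family was picked because Gimap3 is higher in HSCs of middle-aged TTPΔARE mice, so that contrast is given as a description with no test. The libraries are bulk mRNA-seq of sorted bone marrow cells of male mice without treatment. HSCs were lineage-negative Sca-1+ c-Kit+ cells without CD34 and Flk2 and with CD150, and MPP3 cells are multipotent progenitors that lean towards the myeloid lineages. WT mice (wild-type littermates) were compared with mice homozygous for TTPΔARE (TTPdeltaARE in the titles), in which removal of an AU-rich element from the 3′ UTR of Zfp36 stabilises that mRNA and raises tristetraprolin (TTP). The deletion is in the germline, so niche cells and mature blood cells carry it as well as the sorted cells. The groups were young WT HSCs (Y-WT, n = 4), young TTPΔARE HSCs (Y-TTPΔARE, n = 4), middle-aged WT HSCs (M-WT, n = 5), middle-aged TTPΔARE HSCs (M-TTPΔARE, n = 3), young WT MPP3 cells (n = 4) and young TTPΔARE MPP3 cells (n = 4). The labels do not tie libraries to single mice, so p-values measure the spread between these libraries, which may be technical.

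GIMAP stands for GTPase of immunity-associated protein. Members share a GTP-binding AIG1 domain, sit on intracellular membranes such as those of lysosomes, mitochondria and the endoplasmic reticulum, and are best known for keeping T and B lymphocytes alive and quiescent. Loss of GIMAP5 in mice also disturbs the quiescence of HSCs. TTP is an RNA-binding protein that attaches to AU-rich elements, and speeds the decay of the mRNAs that hold them.

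In GENCODE M21 on GRCm38 the 8 genes lie together at chr6:48647234-48770851, over 123.6 kb. In order along the chromosome they are Gimap8 (chr6:48647234-48660875, + strand), Gimap9 (chr6:48676129-48679114, +), Gimap4 (chr6:48684549-48692060, +), Gimap6 (chr6:48701582-48708225, -), Gimap7 (chr6:48718621-48724636, +), Gimap1 (chr6:48739054-48743795, +), Gimap5 (chr6:48746197-48754210, +) and Gimap3 (chr6:48764464-48770851, -). Of the 3073 exon bases of Gimap1, 36% also belong to another gene, the antisense Gimap1os or the read-through gene Gm28053. For Gimap5 and Gimap7 this share was 3.69% and 3.48%, and for the others 0%. Of the stretches of 50 bases in the transcripts of Gimap3, 8.15% also occur in another gene, Gimap5 among them, and 6.84% of those of Gimap5 do. The strand and multimapping settings of the counting are not stated, so counts of Gimap1 and its antisense gene, and in part those of Gimap3 and Gimap5, cannot be told apart with certainty.

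Because TTP binds AU-rich elements in 3′ UTRs, the longest annotated 3′ UTR of each member was searched on the strand of the transcript. The shortest motif searched was ATTTA. The next was TATTTAT, and the longest was the nonamer TTATTTATT. The shorter motifs are contained in the longer ones, so the counts overlap. Gimap9 was the member with TATTTAT and TTATTTATT, 2 overlapping copies each in 343 bases of UTR. ATTTA alone occurred in Gimap8 (4 times in 2035 bases), Gimap6 (3 times in 2822 bases), Gimap5 (once in 786 bases) and Gimap7 (once in 273 bases). The 3′ UTRs of Gimap1, Gimap3 and Gimap4 do not hold these letters. Among the 3′ UTRs of 21020 genes, 65.2% hold ATTTA, 27.6% TATTTAT and 7.66% TTATTTATT. A match is a description of the letters and not a binding site. The sequences below are the match in Gimap9, the member with the full motif, and the matches in Gimap7 and Gimap5, with ATTTA, or 2 overlapping copies of it in Gimap9, in capitals. They lie at chr6:48678357-48678380, chr6:48724445-48724469 and chr6:48754185-48754209 of GRCm38, all on the + strand.
Gimap9: attttATTTATTTAtttttattaa
Gimap7: ccatttgcagATTTAagagatagca
Gimap5: tccttcagctATTTAaaaaaaaaaa

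The libraries held between 24261371 and 39934554 counts. Levels are given as CPM, a gene's counts scaled to a common library size with TMM factors over all 24 libraries. Zfp36 itself, as a check of the labels, lay higher in TTPΔARE without overlap in each setting, at 94.9 ± 8.31 CPM against 47.5 ± 17.3 in young HSCs, 101.7 ± 5.80 against 50.2 ± 7.22 in middle-aged HSCs, and 104.9 ± 19.2 against 29.5 ± 7.32 in MPP3 cells (mean ± SD, n = 3 to 5). In young HSCs this difference did not pass the test over all genes that is used below for the members. Lists of genes for the labelled cell types went in the labelled direction, as 10 of 10 genes of an MPP3 list were higher and 9 of 12 genes of an HSC list lower in MPP3 cells than in HSCs of WT mice. The MPP3 list includes Flt3, the gene of Flk2, at 524.8 CPM in MPP3 cells and 51.6 CPM in HSCs. It therefore does not tell MPP3 cells from progenitors with Flk2. A set of 1736 chemosensory receptor genes (olfactory and vomeronasal) summed to between 573.1 and 944.8 CPM in 3 of 4 Y-WT HSC libraries and to 57.8 CPM in replicate 1, and to between 323.5 and 389.5 CPM in 3 of 4 Y-TTPΔARE HSC libraries and 72.2 CPM in replicate 1, so replicate 1 stands apart in both groups. Transcripts of T cells and of other cell types also differed between groups, and they are given below beside each comparison.

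All 8 members were detected in every library and passed the filter on low counts in every comparison. Per kilobase of exon, the members differed widely in level. In Y-WT HSCs Gimap6, which takes part in autophagy together with GABARAPL2, had the highest level at 108.1 ± 15.5 CPM per kb, followed by Gimap1, which mature T and B cells need, at 75.7 ± 9.63 (mean ± SD, n = 4). Then came Gimap9 at 33.1 ± 5.08, Gimap4 at 28.1 ± 8.39 and Gimap5 at 26.0 ± 4.51, whose ranges overlapped. Gimap8, which carries several AIG1 domains, lay at 15.8 ± 2.04 CPM per kb and Gimap3, a mitochondrial and endoplasmic reticulum member known from the segregation of mitochondrial DNA, at 13.0 ± 4.33, again with overlap. Gimap7 was lowest at 3.87 ± 1.10 CPM per kb. In Y-WT MPP3 cells the order changed. Gimap4, which in HSCs lay above Gimap8 without overlap and overlapped Gimap5, was at 3.87 ± 2.23 CPM per kb and below both Gimap5 (14.4 ± 3.43) and Gimap8 (9.45 ± 1.72) without overlap. Gimap7 (6.13 ± 1.15 CPM per kb) there lay above Gimap3 (1.53 ± 0.800) without overlap, and Gimap4 overlapped both. Summed over the 8 members, the level was 925.5 ± 143.2 CPM in HSCs of Y-WT and 1192 ± 86.3 in those of Y-TTPΔARE mice, 884.9 ± 64.8 in M-WT and 1191 ± 83.4 in M-TTPΔARE HSCs, and 672.8 ± 103.6 and 784.7 ± 134.4 in MPP3 cells. Most of that sum was Gimap6 and Gimap1, so it says little about the members that varied most.

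**Figure D1:**
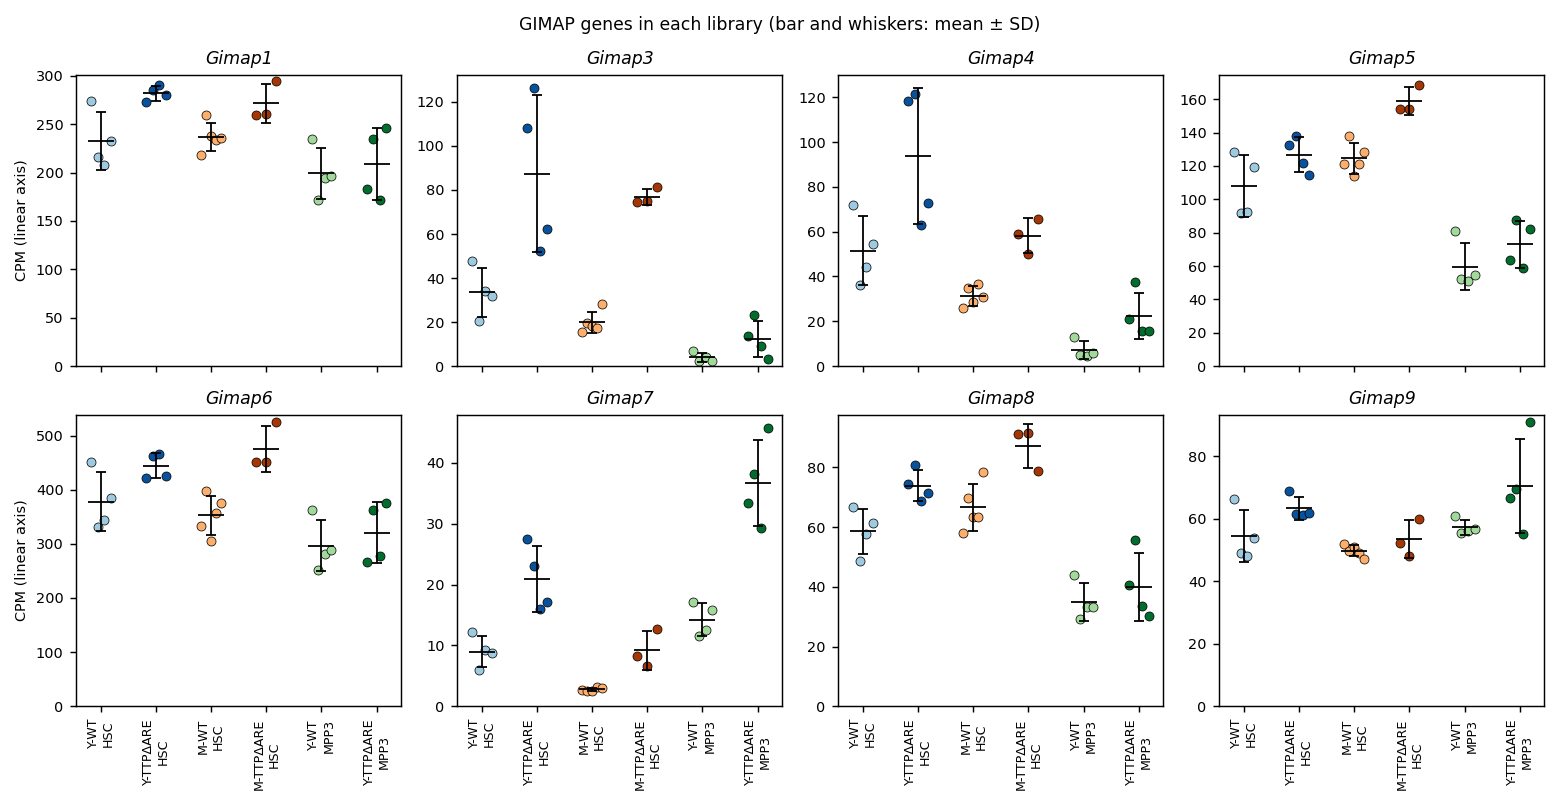
CPM of each GIMAP gene (vertical axes, linear and separate for each gene) in the 6 groups (horizontal axis), with 1 point per library and mean ± SD as bar and whiskers. Gimap3, Gimap4 and Gimap7 spread over the groups most, while Gimap9 stays between 47.2 and 91.0 CPM in every library.

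In young HSCs the levels of Gimap3, Gimap4 and Gimap7 were highest in the TTPΔARE libraries, but no member passed the test over all genes. Gimap3 lay at 47.7, 20.5, 34.0 and 32.0 CPM in the Y-WT libraries (replicates 1 to 4) and at 108.3, 126.2, 52.2 and 62.4 CPM in the Y-TTPΔARE libraries. The groups did not overlap, and replicates 1 and 2 of Y-TTPΔARE lay well above replicates 3 and 4. The log2 fold change of Gimap3 was 1.34 ± 0.32 (SE, adjusted p = 0.258 in the quasi-likelihood F test of edgeR, with the method of Benjamini and Hochberg over all genes tested). Gimap7, which can stimulate the GTPase activity of another family member, lay at 12.2, 5.92, 9.18 and 8.74 CPM in Y-WT and at 27.5, 23.1, 15.9 and 17.1 CPM in Y-TTPΔARE, again without overlap and with the same libraries highest. Its log2 fold change was 1.18 ± 0.24 (adjusted p = 0.208). Gimap4, which promotes the death of T cells, lay at 71.7, 36.0, 44.1 and 54.5 CPM in Y-WT and at 118.2, 121.3, 62.9 and 72.8 CPM in Y-TTPΔARE. Its groups overlapped, since replicate 1 of Y-WT lay above replicate 3 of Y-TTPΔARE, and its log2 fold change was 0.83 ± 0.26 (adjusted p = 0.404).

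The other members differed less between the genotypes in young HSCs. Gimap8 lay between 48.7 and 66.6 CPM in Y-WT and between 68.7 and 80.7 CPM in Y-TTPΔARE, with no overlap and a log2 fold change of 0.29 ± 0.10 (adjusted p = 0.473). Gimap1, Gimap5, Gimap6 and Gimap9 had log2 fold changes of 0.23 ± 0.09, 0.19 ± 0.12, 0.19 ± 0.10 and 0.18 ± 0.11 (adjusted p between 0.559 and 0.717). So 0 of 8 members were called, beside 0.0435% of the 13786 genes tested (0.0218% called higher and 0.0218% called lower). Zfp36, the gene with the deletion, was not called in this comparison either, at a log2 fold change of 0.96 ± 0.21 (adjusted p = 0.238). A call needed 3 things, namely an average logCPM above 1.5, a change of more than 1.2-fold and an adjusted p below 0.05. At an unadjusted p under 0.05 there were 5 members (Gimap1, Gimap3, Gimap4, Gimap7 and Gimap8), beside 1414 of the 13786 genes tested. Without overlap, 3 members (Gimap3, Gimap7 and Gimap8) lay higher, beside 6.82% of genes higher and 1.3% lower among those over the same limit on logCPM. The paper, which used edgeR at the same limits, reported more changed genes in young HSCs. Zfp36 and Gimap4 were among those it gave as higher in TTPΔARE. It does not name the edgeR test, and the cause of the difference was not tested. The call depends on the tool. DESeq2 called Gimap3 (adjusted p = 0.0329) and Gimap7 (adjusted p = 9.5e-04), edgeR's likelihood ratio test and a fit with no filter on low counts called the same 2 members, and a fit of all 24 libraries called Gimap7. Calls over all genes rose as well, from 3 higher and 3 lower to 165 and 139 with DESeq2. They were 50 and 96 with the likelihood ratio test, 40 and 33 with no filter, and 15 and 3 with all 24 libraries. Without replicate 1 of Y-WT, which with replicate 1 of Y-TTPΔARE had the fewest receptor gene counts among young HSCs, the adjusted p of Gimap3 was 0.106 and that of Gimap7 0.0961. After subtraction of group means, the summed receptor genes had a Pearson correlation with the log2 level of each member between -0.96 (Gimap9) and -0.57 (Gimap8) over the 8 young HSC libraries, with -0.60 for Gimap3, -0.71 for Gimap4 and -0.75 for Gimap7. The 3 higher sums of Y-WT lay above all 4 of Y-TTPΔARE, and the part of this sum in the differences was not tested.

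Levels of T-cell transcripts were examined beside these members. Among 22 genes of T and NK cells, the mean of all 22 was higher in Y-TTPΔARE than in Y-WT HSCs, although 0 of the 16 that could be tested were called (median log2 fold change 0.81, beside 0.03 over all genes). Their summed level lay between 151.8 and 196.5 CPM in Y-WT and between 228.9 and 428.4 CPM in Y-TTPΔARE, and 2 genes, Gzma and Gzmb, were at 0 in at least 1 Y-WT library. Cd3e, a subunit of the T-cell receptor complex, lay at 7.84, 2.69, 6.17 and 4.70 CPM in Y-WT and at 25.6, 25.6, 8.42 and 11.8 CPM in Y-TTPΔARE. Replicates 1 and 2 of Y-TTPΔARE, where Gimap3, Gimap4 and Gimap7 were highest, were thus also highest in Cd3e. After the mean of each group was subtracted, log2 levels of Cd3e and of Gimap3 had a Pearson correlation of 0.98 over the 8 young HSC libraries. It was 0.95 for Gimap7, 0.92 for Gimap4, 0.82 for Gimap8, 0.61 for Gimap5, 0.53 for Gimap9, 0.35 for Gimap6 and 0.25 for Gimap1. Over all 24 libraries it was lower, at 0.63 for Gimap3, 0.43 for Gimap4, 0.40 for Gimap8, 0.33 for Gimap7 and between -0.02 and 0.09 for the others. With the summed T and NK genes, Gimap3, Gimap4 and Gimap7 had 0.89, 0.85 and 0.84 over the 8 libraries. Over all 24 they had -0.18, 0.08 and 0.59. These libraries share depth and sorting, and the correlations are a description. Genes of other cell types also differed in level. Of 12 erythroid genes 11 had a higher mean in Y-TTPΔARE, 7 of them without overlap (median log2 fold change 1.60), and the haemoglobin gene Hbb-bt was called higher (1.60 ± 0.18, adjusted p = 0.0285). Of 12 endothelial genes 1 had a higher mean (median -0.61, 0 called). In bulk samples more cells of a type and more RNA per cell cannot be told apart, and the part of RNA from T cells or these other cell types in the differences was not tested.

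**Figure D2:**
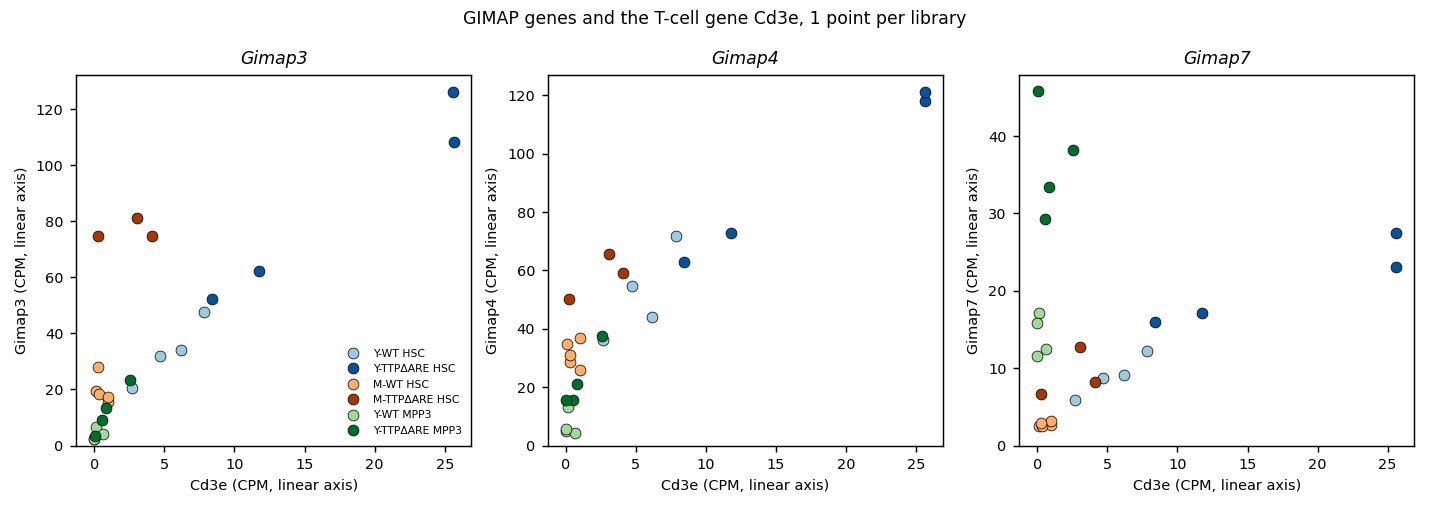
CPM of Gimap3, Gimap4 and Gimap7 (vertical axes, linear) against CPM of the T-cell gene Cd3e (horizontal axis, linear), with 1 point per library and 1 colour per group. In young HSCs (blue) the GIMAP genes rise along with Cd3e, while in middle-aged HSCs (orange) Gimap3 lies between 74.6 and 81.2 CPM in the 3 M-TTPΔARE libraries at Cd3e levels from 0.269 to 4.12 CPM, and Gimap7 is highest in an MPP3 library with 0.0428 CPM of Cd3e.

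In HSCs of middle-aged mice Gimap3, Gimap7 and Gimap4 lay higher in TTPΔARE, and this contrast chose the family, so the values are a description. Gimap3 lay at 15.7, 19.5, 18.4, 17.4 and 28.2 CPM in M-WT and at 74.6, 74.8 and 81.2 CPM in M-TTPΔARE. The M-TTPΔARE libraries lay close together, far above the highest M-WT library, with a log2 fold change of 1.91 ± 0.16 (SE). Gimap7 lay at 2.66, 2.50, 2.58, 3.21 and 2.94 CPM in M-WT and at 8.27, 6.63 and 12.8 CPM in M-TTPΔARE (log2 fold change 1.69 ± 0.20). Gimap4 lay at 25.8, 34.8, 28.6, 36.8 and 30.9 CPM and at 59.1, 50.2 and 65.6 CPM (log2 fold change 0.85 ± 0.12). These 3 members did not overlap between the genotypes. For the members with more moderate differences, the log2 fold change was 0.38 ± 0.09 for Gimap6, 0.34 ± 0.09 for Gimap8, 0.30 ± 0.07 for Gimap5 and 0.15 ± 0.07 for Gimap1. Gimap9 differed by 0.06 ± 0.08 and overlapped. In this contrast 3 members lay past the limits of a call, beside 2.22% of the genes tested (1.1% higher and 1.12% lower), and 7 of 8 lay higher without overlap, beside 9.5% of genes higher and 4.29% lower. Without replicate 2 of M-WT there were 5 past the limits, Gimap5 and Gimap6 beside the 3. Since the rule used this contrast, nothing is read from these counts.

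Fewer T-cell transcripts were present in the middle-aged HSCs. The 22 T and NK genes summed to between 81.6 and 101.8 CPM in M-WT and between 99.3 and 128.1 CPM in M-TTPΔARE, with 21 of 22 means higher in M-TTPΔARE and 1 of 6 testable genes called higher. In M-WT, 8 of the 22 were at 0 in at least 1 library, among them Cd3d, Cd5 and Cd8a. Cd3e lay at 0.997, 0.101, 0.316, 1.01 and 0.287 CPM in M-WT and at 4.12, 0.269 and 3.06 CPM in M-TTPΔARE. Replicate 2 of M-TTPΔARE therefore lay within the M-WT range of Cd3e, at 10 counts, and had 74.8 CPM of Gimap3, 50.2 CPM of Gimap4 and 6.63 CPM of Gimap7, each above every M-WT library. The lowest Gimap4 and Gimap7 levels of the M-TTPΔARE group were in that library. Of other cell types, 7 of 12 erythroid genes had higher means in M-TTPΔARE (1 called), 6 of 12 B-cell genes (0 called), 6 of 12 endothelial genes (0 called) and 2 of 14 granulocyte and monocyte genes (0 called). Of 11 testable megakaryocyte genes 2 were called lower, Itga2b (-1.04) and Itgb3 (-1.18). Of 6 testable genes of the MPP3 list 1 was called higher and 2 lower, and of 12 HSC genes 1 was called higher. The part of any of these in the differences was not tested.

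In MPP3 cells of young mice Gimap7 rose in TTPΔARE. It lay at 17.1, 11.5, 12.5 and 15.9 CPM in Y-WT and at 33.4, 38.2, 29.3 and 45.8 CPM in Y-TTPΔARE. The lowest TTPΔARE library was far above the highest WT library, with a log2 fold change of 1.32 ± 0.17 (SE, adjusted p = 0.00239, edgeR's quasi-likelihood test). With any 1 of the 8 libraries left out Gimap7 remained called (adjusted p between 0.00486 and 0.0140). This made 1 of 8 members called, beside 2.54% of the 12856 genes tested (2.33% called higher and 0.202% lower).

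Gimap4 and Gimap3 had larger fold changes in MPP3 cells than Gimap7 but also more spread. Gimap4 lay at 13.2, 5.09, 4.42 and 5.70 CPM in Y-WT and at 21.2, 37.4, 15.6 and 15.7 CPM in Y-TTPΔARE, without overlap (log2 fold change 1.68 ± 0.42, adjusted p = 0.0919). Gimap4 and Gimap7 were the 2 members higher without overlap, beside 4.64% of genes higher and 6.66% lower. Gimap3 lay at 6.74, 2.28, 4.22 and 2.49 CPM and at 13.5, 23.3, 9.14 and 3.42 CPM, so that replicate 4 of Y-TTPΔARE fell into the WT range (log2 fold change 1.71 ± 0.56, adjusted p = 0.233). DESeq2 called Gimap3, Gimap4 and Gimap7 (adjusted p = 0.0392, 0.00209 and 7.8e-11). Over all genes DESeq2 called 563 higher and 203 lower, against 300 and 26 with the quasi-likelihood test. Without replicate 4 of Y-TTPΔARE 2 members were called, Gimap7 and Gimap3, and without replicate 1 of Y-WT, the WT library highest in Gimap3 and Gimap4, they were Gimap7 and Gimap4. Gimap5, Gimap9, Gimap8, Gimap6 and Gimap1 had log2 fold changes of 0.27 ± 0.18, 0.25 ± 0.12, 0.19 ± 0.23, 0.08 ± 0.14 and 0.03 ± 0.14 (adjusted p between 0.434 and 0.949). With library totals in place of TMM scaling the sign for Gimap1 turned (-0.01).

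The T and NK genes in MPP3 cells had 21 of 22 means higher in Y-TTPΔARE and 3 of the 8 testable genes called higher, the NK receptor gene Klrd1 (log2 fold change 4.45, adjusted p = 2.9e-04), the T-cell kinase gene Lck (0.76, adjusted p = 0.00805) and the cytokine receptor gene Il2rb (3.10, adjusted p = 0.0401). Their summed level lay between 307.9 and 406.1 CPM in Y-WT and between 382.4 and 767.2 CPM in Y-TTPΔARE. Most of it was Nkg7, a cytotoxic granule gene, at 190.5 to 309.0 CPM and at 188.0 to 564.6 CPM. Cd3e was near 0, at 0 to 0.637 CPM in Y-WT and 0.0428 to 2.56 CPM in Y-TTPΔARE, and 9 of the 22 genes, Cd3d, Cd3e and Cd3g among them, were at 0 in at least 1 Y-WT library. Replicate 4 of Y-TTPΔARE, with 1 count of Cd3e, had the highest Gimap7 level (45.8 CPM), the highest Nkg7 level and the lowest Gimap3 level of its group. Replicate 2, highest in Cd3e, was highest in Gimap3 and Gimap4. Other cell types were examined in the same way. All 12 means of B-cell genes were higher in Y-TTPΔARE (median log2 fold change 1.04), and 1 of 7 testable genes, the B-cell receptor regulator gene Cd22, was called higher (2.69 ± 0.31, adjusted p = 0.00139). Of 14 granulocyte and monocyte genes 11 had higher means (2 called, the elastase gene Elane and the Fc receptor gene Fcgr3), and of 12 erythroid genes 11 had (2 called, Hbb-bt and Hbb-bs). Of 8 testable endothelial genes 2 were called lower, and of 8 testable megakaryocyte genes 2 as well. The part of RNA from any of these cell types in the change of Gimap7 was not tested.

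**Figure D3:**
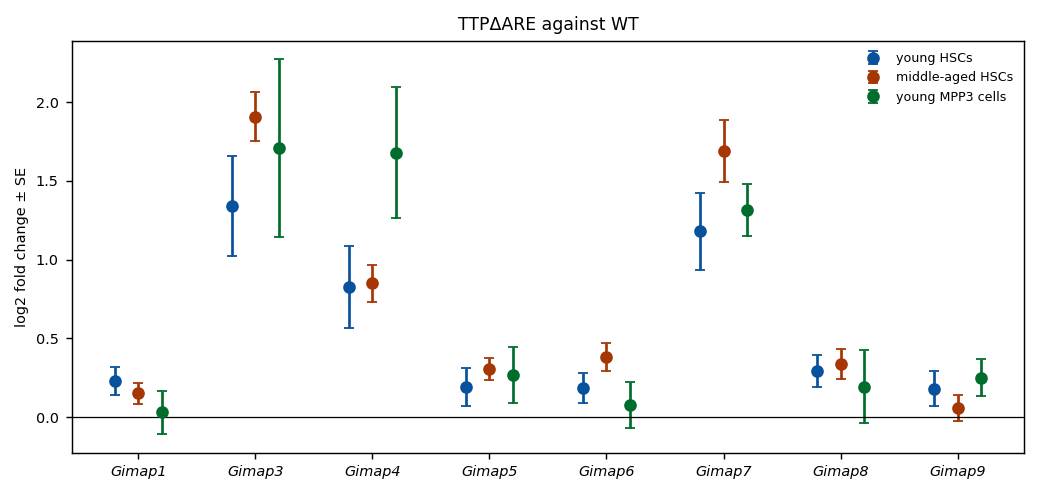
Log2 fold change of TTPΔARE against WT with its SE (vertical axis) for each GIMAP gene (horizontal axis) in HSCs of young mice, HSCs of middle-aged mice and MPP3 cells of young mice. Gimap3, Gimap4 and Gimap7 lie between 0.83 and 1.91 in all 3 comparisons, and the other 5 genes between 0.03 and 0.38.

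**Figure D4:**
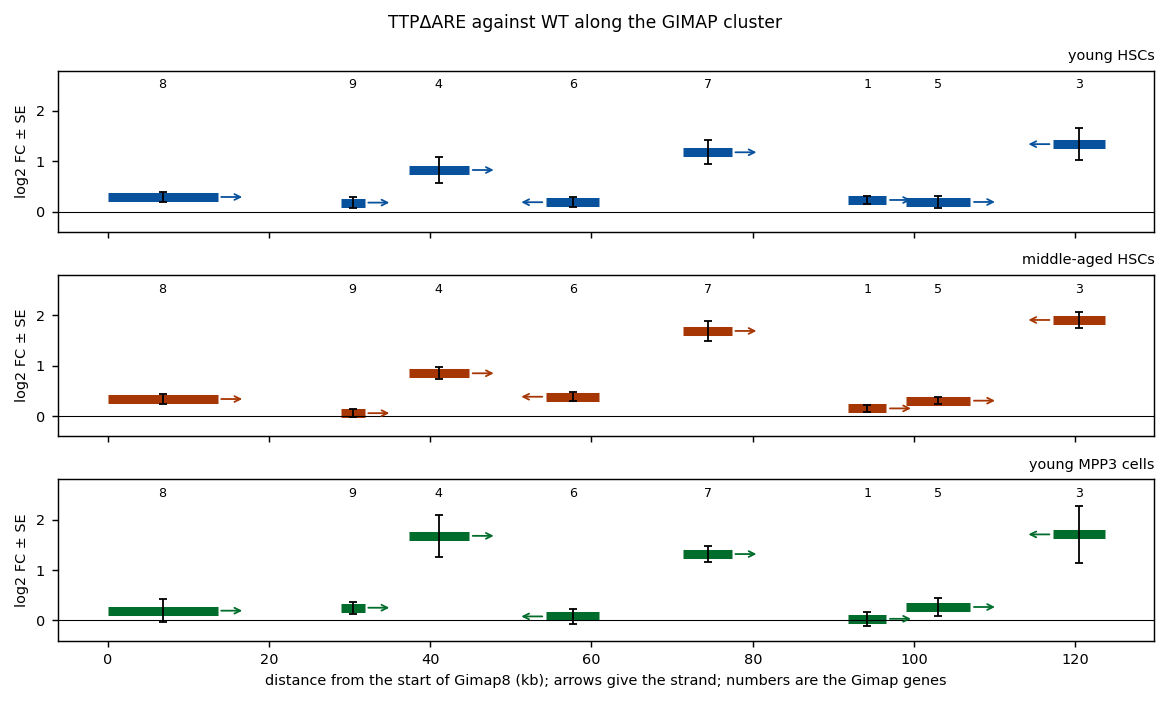
The same log2 fold changes with SE (vertical axes), drawn at the place of each gene in the cluster (horizontal axis, kb from the start of Gimap8), with arrows for the strand. Gimap4, Gimap7 and Gimap3, the members with the largest differences, are separated by Gimap6, Gimap1 and Gimap5, which differ by at most 0.38.

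The genotype differences in MPP3 cells and in HSCs of young mice were compared as an interaction. No member was called (0 of 8, beside 0.839% of the 13467 genes tested, 0.75% higher and 0.0891% lower). At an unadjusted p under 0.05 there were 0 members as well, beside 2356 of the 13467 genes tested, and DESeq2 called 0 members. The difference of the log2 fold changes, MPP3 minus HSC, was 0.75 ± 0.54 for Gimap4 (SE, adjusted p = 0.733), 0.24 ± 0.68 for Gimap3 and 0.06 ± 0.34 for Gimap7 (adjusted p = 0.933 and 0.966), and with libraries left out the sign for Gimap3 and Gimap7 turned. Over all genes its median was -0.11. With standard errors of this size, a difference of 1 on the log2 scale in Gimap3 or Gimap4 was not detectable.

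Between the cell types Gimap3 and Gimap4 fell most. In young WT mice Gimap3 was at 33.6 ± 11.2 CPM in HSCs and 3.93 ± 2.06 in MPP3 cells (mean ± SD, 4 libraries each), and its log2 fold change was -3.18 ± 0.53 (SE, adjusted p = 3.8e-04, edgeR's quasi-likelihood test). Gimap4 was at 51.6 ± 15.4 and 7.10 ± 4.09 CPM (log2 fold change -2.94 ± 0.41, adjusted p = 7.5e-05). Gimap5 (-0.92 ± 0.19, adjusted p = 0.00214) and Gimap8 (-0.80 ± 0.19, adjusted p = 0.00685) were also lower, each from levels that did not overlap (50.9 to 80.8 CPM in MPP3 cells against 91.6 to 128.1 in HSCs for Gimap5, and 29.3 to 44.1 against 48.7 to 66.6 for Gimap8). These 4 members were called lower, beside 31.6% of the 13467 genes tested called in either direction, 11.5% lower and 20.1% higher. They were also the 4 lower without overlap, beside 12.6% of genes lower and 33.5% higher. All 4 remained called with any 1 of the 16 young libraries left out. Gimap6 (-0.41 ± 0.15, adjusted p = 0.0777) and Gimap1 (-0.28 ± 0.15, adjusted p = 0.204) did not pass, although DESeq2 called both lower, nor did Gimap7 (0.60 ± 0.25, adjusted p = 0.104), which lay at 14.3 ± 2.67 CPM in MPP3 cells and 9.0 ± 2.55 in HSCs. With the replicate number of the titles as a block in the fit, Gimap6 and Gimap7 were again not called. A block of same-numbered libraries within each genotype, chosen after seeing the data, called both. Gimap9 differed by 0.02 ± 0.15 (adjusted p = 0.934), with a sign that turned under DESeq2, other scalings and no filter. The median over all genes was 0.12 in this comparison and -0.09 with library totals.

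In young TTPΔARE mice the same comparison had 6 of 8 members lower, beside 28.6% of genes called in either direction, 14.8% lower and 13.7% higher. They were Gimap3 (87.3 ± 35.6 CPM in HSCs and 12.3 ± 8.39 in MPP3 cells, log2 fold change -2.94 ± 0.51, adjusted p = 6.3e-04), Gimap4 (93.8 ± 30.3 and 22.5 ± 10.3 CPM, -2.19 ± 0.39, adjusted p = 8.1e-04), Gimap8 (-1.01 ± 0.19, adjusted p = 0.00130), Gimap5 (-0.93 ± 0.19, adjusted p = 0.00205), Gimap6 (-0.60 ± 0.15, adjusted p = 0.0113) and Gimap1 (-0.57 ± 0.15, adjusted p = 0.0118). The same 6 lay lower without overlap, beside 12.7% of genes. Without replicate 3 of Y-TTPΔARE MPP3, Gimap1 (adjusted p = 0.0630) and Gimap6 (adjusted p = 0.0572) were not called. Gimap7 went the other way, at 20.9 ± 5.41 CPM in HSCs and 36.7 ± 7.08 in MPP3 cells without overlap, beside 24.1% of genes that were higher without overlap. Its log2 fold change of 0.66 ± 0.24 missed the limit (adjusted p = 0.0746). Same-numbered libraries of these groups deviated together in their values, although the labels name no shared mouse or day. With the replicate number as a block, Gimap7 was called higher (log2 fold change 0.69, adjusted p = 0.0423). That block also ties same-numbered libraries of WT and of the genotypes, which are not read as pairs, so the call stays uncertain. Gimap9 differed by 0.01 ± 0.15, and its sign turned with library totals. T-cell receptor complex genes also fell from HSCs to MPP3 cells (Cd3d -6.29 and Cd3g -4.51 on the log2 scale in WT, adjusted p = 3.5e-05 and 3.4e-04), while Nkg7 rose (2.64, adjusted p = 4.6e-06). Of 13 testable T and NK genes 1 was called higher and 7 lower in WT (median -1.22), and 2 and 6 in TTPΔARE (median -1.20). Endothelial genes, several of which HSCs also express, fell in 11 of 12 cases in both genotypes (median -3.12 in WT and -2.74 in TTPΔARE), the receptor gene Kdr (-7.66, adjusted p = 4.8e-06 in WT) among them. Of 10 testable megakaryocyte genes 8 and 9 fell, and of 13 granulocyte and monocyte genes 7 rose in each genotype. The part of these cell types in the fall of Gimap3 and Gimap4 was not tested. HSC and MPP3 libraries have separate runs of numbers in the titles, so cell type and library set cannot be told apart.

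Between the ages, Gimap7 and Gimap4 were lower in M-WT than in Y-WT HSCs. Gimap7 lay between 2.50 and 3.21 CPM in M-WT and between 5.92 and 12.2 CPM in Y-WT, without overlap (log2 fold change -1.68 ± 0.23, SE, adjusted p = 1.3e-04, edgeR's quasi-likelihood test). It remained called with any 1 of the 16 HSC libraries left out. Gimap4 lay between 25.8 and 36.8 CPM in M-WT and between 36.0 and 71.7 CPM in Y-WT (log2 fold change -0.70 ± 0.21, adjusted p = 0.0230), with a small overlap, and it stayed called in 10 of the 16 leave-outs. Gimap3 lay between 15.7 and 28.2 CPM in M-WT and between 20.5 and 47.7 CPM in Y-WT (log2 fold change -0.74 ± 0.26). Since M-WT libraries chose Gimap3, its value is a description, and it lay past the limits of a call in 5 of the 16 leave-outs. With Gimap3 counted, 3 members lay past the limits, beside 24% of the 13667 genes tested in either direction (6.32% lower and 17.7% higher), and Gimap7 was the 1 member lower without overlap, beside 4.7% of genes lower and 16.4% higher. Of these 3, Gimap7 alone remained past the limits when replicate 1, 2 or 3 of M-WT or replicate 1 or 4 of Y-WT was left out. Gimap5 (0.23 ± 0.10, adjusted p = 0.101) and Gimap8 (0.20 ± 0.10, adjusted p = 0.113) were called higher when replicate 1 of Y-WT was left out (adjusted p = 0.00685 and 0.0138). Gimap1, Gimap6 and Gimap9 differed by 0.04 ± 0.08, -0.08 ± 0.10 and -0.11 ± 0.10 (adjusted p between 0.431 and 0.705), and the sign for Gimap1 turned with DESeq2, the other scalings and with libraries left out. T-cell genes fell with age as well, with 10 of 12 testable T and NK genes called lower, Cd3d (-4.65, adjusted p = 3.8e-04), Cd3g (-3.84, adjusted p = 1.9e-04) and Cd2 (-3.71, adjusted p = 5.3e-04) among them. Of 12 endothelial genes 6 were called lower and 2 higher, with Plvap (-3.72, adjusted p = 1.2e-04) and Cdh5 (-3.51, adjusted p = 6.1e-05) among the lower ones, and of 7 testable MPP3 genes 4 were lower and 1 higher. The part of any of these in the lower level of Gimap7 and Gimap4 was not tested. The ages too have separate runs of numbers in the titles, and age and library set cannot be told apart.

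**Figure D5:**
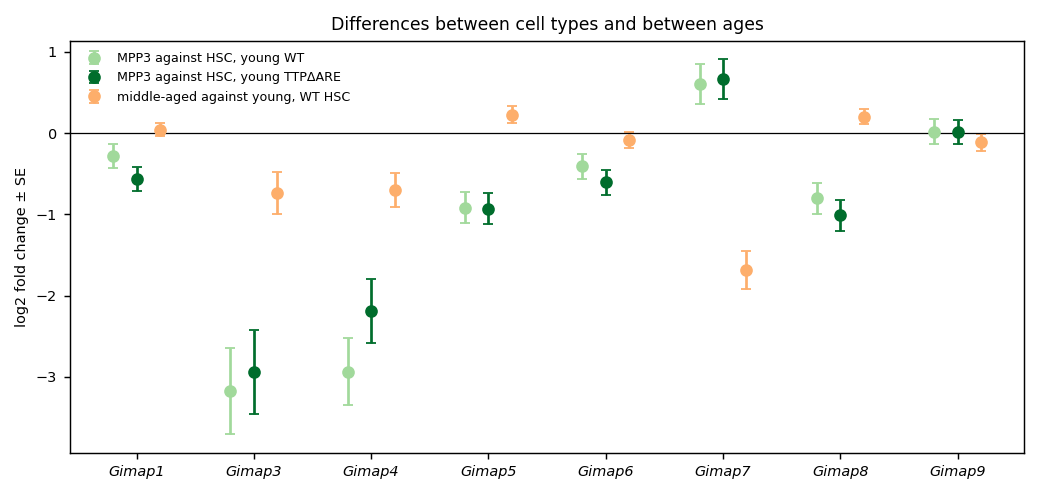
Log2 fold change with its SE (vertical axis) of each GIMAP gene (horizontal axis) for MPP3 cells against HSCs in young WT and young TTPΔARE mice and for middle-aged against young WT HSCs. Gimap3 and Gimap4 lie between -3.18 and -2.19 in the cell type comparisons, Gimap7 lies above 0 there and at -1.68 between the ages, and Gimap9 stays within 0.11 of 0, with a sign that turns with the scaling in both cell type comparisons and with a library left out between the ages.

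Ordered by mean level, Gimap3 ran from 87.3 ± 35.6 CPM in Y-TTPΔARE HSCs over M-TTPΔARE HSCs (76.9 ± 3.75), Y-WT HSCs (33.6 ± 11.2), M-WT HSCs (19.8 ± 4.87) and Y-TTPΔARE MPP3 cells (12.3 ± 8.39) to Y-WT MPP3 cells (3.93 ± 2.06). Neighbours in that order overlapped, apart from M-TTPΔARE and Y-WT HSCs. Gimap7 had another order, with Y-TTPΔARE MPP3 cells highest (36.7 ± 7.08 CPM), then Y-TTPΔARE HSCs (20.9 ± 5.41), Y-WT MPP3 cells (14.3 ± 2.67), M-TTPΔARE HSCs (9.23 ± 3.18), Y-WT HSCs (9.0 ± 2.55) and M-WT HSCs (2.78 ± 0.291). Here the highest group and the lowest group stood apart from their neighbours, and the groups between them overlapped with theirs. The order of Gimap4 was like that of Gimap3, from 93.8 ± 30.3 CPM in Y-TTPΔARE HSCs to 7.10 ± 4.09 in Y-WT MPP3 cells, and its neighbours overlapped apart from Y-TTPΔARE and Y-WT MPP3 cells.

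Pairs of members were then compared across libraries. Over the 24 libraries, the log2 CPM of Gimap3 had a Pearson correlation of 0.95 with Gimap4, 0.92 with Gimap8, 0.85 with Gimap5, 0.80 with Gimap6 and 0.75 with Gimap1, but of -0.08 with Gimap7 and -0.11 with Gimap9. Gimap7 and Gimap9 had one of 0.81. After the mean of each group was subtracted the highest values were 0.92 for Gimap1 with Gimap6, 0.89 for Gimap5 with Gimap6 and 0.88 for Gimap3 with Gimap8, and Gimap7 with Gimap9 had 0.71. Among 13040 genes, the 5 most like Gimap3 over all 24 libraries were Gimap4 (0.953), Gimap8 (0.917), Hgfac (0.908), Hopx (0.903) and Gbp6 (0.902). Over the 16 HSC libraries they were Irf5 (0.930), Itgb7 (0.923), P2rx7 (0.914), Gimap4 (0.907) and Unc119b (0.906), and Gimap7 came at rank 23 (0.866). The correlation of Gimap3 with Zfp36 was 0.860 over these 16 libraries and that with Cd3e 0.650. Over all 24 libraries the order was reversed, at 0.584 for Zfp36 and 0.805 for Cd3e. Gimap3 was picked by its genotype difference in middle-aged HSCs, where Zfp36 differs as well. Nothing is therefore read from its correlation with Zfp36. These libraries share groups, depth and sorting, so the values describe likeness only.

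Genes around the cluster were examined in the same comparisons. Of 51 other genes with a start within 500 kb, 0 were called between genotypes in young HSCs (19 tested, median log2 fold change -0.01), 0 in middle-aged HSCs (19 tested, 0.05) and 0 in MPP3 cells (18 tested, 0.00). Over all genes tested, 0.0435%, 2.22% and 2.54% were called there. The antisense gene Gimap1os, which shares exon bases with Gimap1, had log2 fold changes of 0.27 ± 0.08, 0.23 ± 0.09 and 0.15 ± 0.16 in these comparisons, beside 0.23, 0.15 and 0.03 for Gimap1. Between MPP3 cells and HSCs of WT mice 2 of 19 neighbours were called higher and 6 lower (median -0.45), and in TTPΔARE mice 1 higher and 9 lower (median -0.57). Over all genes tested 20.1% were higher and 11.5% lower in WT, and 13.7% and 14.8% in TTPΔARE. Between ages 5 of 18 were higher and 1 lower, beside 17.7% and 6.32% of all genes. The membrane protein genes Tmem176a (0.50 ± 0.10, adjusted p = 0.00210) and Tmem176b (0.29 ± 0.08, adjusted p = 0.0217) were among those higher in M-WT.

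The other large GTPase families of immune cells are the interferon-inducible guanylate-binding proteins (Gbp), immunity-related GTPases and Mx proteins. Of 19 testable genes 12 were called lower in MPP3 cells than in HSCs of WT mice (median -0.69), Gbp9 (-3.14 ± 0.40, adjusted p = 2.9e-05) and Gbp8 (-2.46 ± 0.38, adjusted p = 2.0e-04) among them. In TTPΔARE mice 10 were lower and 1, the antiviral gene Mx1, higher (median -0.62). Over all genes tested 11.5% were lower in WT, and 14.8% lower and 13.7% higher in TTPΔARE. Between genotypes 0 of 19 were called in young HSCs (median 0.21), 1 of 19 in middle-aged HSCs (Gbp9, 0.64 ± 0.12, adjusted p = 0.0231) and 1 of 18 in MPP3 cells (Mx1, 1.93 ± 0.28, adjusted p = 0.00534). The shares of all genes called were 0.0435%, 2.22% and 2.54%. Between ages 1 of 19, Gvin1, was higher and 1, Mx2, lower, beside 17.7% and 6.32% of all genes.

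BCL2 family and ATG8 family genes, of which several proteins are known to bind GIMAP proteins, had 0 of 14 calls between genotypes in young HSCs, 0 of 15 in middle-aged HSCs and 2 of 17 in MPP3 cells, the latter the pro-survival gene Bcl2a1d (3.92 ± 0.39, adjusted p = 6.5e-04) and the pro-death gene Pmaip1 (2.75 ± 0.50, adjusted p = 0.0210). Over all genes tested 0.0435%, 2.22% and 2.54% were called in these groups. Between ages 3 of 14 were higher, which is near the 17.7% of all genes called higher. They were the autophagy gene Gabarapl1 (0.41 ± 0.09, adjusted p = 0.00426) and the survival genes Bcl2 (0.35 ± 0.09, adjusted p = 0.0115) and Bcl2l1 (0.30 ± 0.10, adjusted p = 0.0369). Among genes of lymphocyte quiescence and trafficking, 3 of 13 were higher in TTPΔARE MPP3 cells, Klf2 (3.92 ± 0.21, adjusted p = 7.2e-05), Slfn2 (2.52 ± 0.22, adjusted p = 3.5e-04) and Ccr7 (2.02 ± 0.35, adjusted p = 0.0158). In middle-aged HSCs 1 of 11, the egress receptor gene S1pr1, was lower (-0.56 ± 0.09, adjusted p = 0.0102), and in young HSCs 0 of 12 were called. Klf2, which encodes a transcription factor, and Slfn2 also had a called interaction between genotype and cell type (3.77 ± 0.44 and 2.00 ± 0.38, adjusted p = 5.0e-04 and 0.0255).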

How the data were processed

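Raw counts per gene symbol were deposited for 24 libraries (55376 genes, 24261371 to 39934554 counts per library). According to the methods and the labels, the authors made these counts with featureCounts from STAR alignments to mm10 (GENCODE M22) after trimming by Cutadapt within Trim Galore. Its settings for strand and multimapping are not given in the sources used here, and the library kit is named differently in labels and methods. For members with high counts the counting error is small at this depth, and the spread between libraries sets the precision. It weighs more at low counts, as for Gimap7 in M-WT HSCs (2.78 CPM) and for Cd3e in M-WT HSCs and MPP3 cells. Gimap3 in MPP3 cells is another case, with 79 counts in replicate 2 of Y-WT and 80 in replicate 4 of Y-TTPΔARE.

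Counts were fitted in R 4.3.3 with edgeR 4.0.16 (TMM factors, filterByExpr at 10 counts and 15 in total, quasi-likelihood F test, Benjamini-Hochberg adjustment over all genes tested). Genotypes were compared on the libraries of their own cell type and age, cell types and the interaction on the 16 young libraries, and ages on the 16 HSC libraries. The SE was derived from the log2 fold change and the F statistic (absolute change over root F). The methods use 3 of the 4 Y-TTPΔARE MPP3 libraries, and all 4 were used here. Correlations were taken on log2 CPM (prior count 2). The fits were tested on simulated counts.

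Among the young TTPΔARE HSC and MPP3 libraries, those with the same replicate number in the titles deviated together (r between 0.214 and 0.298 for the 4 pairs). This comes from the values, and the labels name no shared mouse or day. Alternatives were DESeq2 1.42.0, the likelihood ratio test, other scalings, no filter, no limits, the replicate block, all 24 libraries in one fit and each library left out. A block within genotype, and a fit without replicates 1 and 2 of Y-TTPΔARE HSCs, highest in Cd3e, were added after the data were seen. Gene positions, 3′ UTRs and exon lengths are those of GENCODE M21 on GRCm38, which matched 98.4% of the symbols. All 8 members were named in every comparison, up to 4 genes of a list by the smallest p (for a list with fewer calls, those called), the 5 genes most like Gimap3 by correlation, and neighbours within 500 kb. Cd3e and other single T-cell genes were named after their values were seen. The members and lists were chosen with earlier results of these data known.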

Additional observations from a re-analysis of the deposited data

Results flagged for a closer look

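Single libraries stood apart from their group in 3 of the 40 sets of 4 or 5 libraries of a member that were examined, by the gap to the nearest library relative to the range (critical value 0.829 for 4 libraries). Chance gives about 1 in 20. In Y-WT MPP3 cells replicate 1 had 13.2 CPM of Gimap4 (0.854 of the range) and 80.8 CPM of Gimap5 (0.879), both the highest of the group. Replicate 1 of Y-TTPΔARE HSCs had 68.9 CPM of Gimap9 (0.906), also the highest. Without that Y-WT MPP3 library the log2 fold change of Gimap4 between genotypes was 2.09 (adjusted p = 0.0351).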

How the results depend on the processing

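Members called between genotypes in young HSCs numbered 0, and 2 with DESeq2, with the likelihood ratio test and with no filter, and 1 in the fit of all 24 libraries. Without replicates 1 and 2 of Y-TTPΔARE, chosen after Cd3e was seen, no member was called, beside 3 genes higher and 0 lower. That fit keeps only replicates 3 and 4 in the group, so it cannot decide the part of T-cell RNA. Over all genes, the main fit called 3 higher and 3 lower. DESeq2 called 165 and 139, the likelihood ratio test 50 and 96, no filter 40 and 33, and all 24 libraries 15 and 3. In MPP3 cells 1 was called, and 3 with DESeq2, no filter or all 24 libraries, 2 with the likelihood ratio test, and 1 to 2 with a library left out. Calls over all genes there were 300 higher and 26 lower in the main fit. They were 563 and 203 with DESeq2, 403 and 67 with no filter, 664 and 580 with all 24 libraries, and 462 and 78 with the likelihood ratio test. In middle-aged HSCs 3 lay past the limits, and 6 with DESeq2 or no filter, 5 with upper quartile factors or library totals, and 3 to 5 with a library left out. All genes past the limits there numbered 148 higher and 150 lower in the main fit. They were 375 and 460 with DESeq2, 339 and 503 with no filter, 221 and 124 with upper quartile factors, and 212 and 125 with library totals. Between ages 3 lay past the limits, and 1 with all 24 libraries and 1 to 3 with a library left out. Over all genes 2416 were called higher and 864 lower between ages, and 1272 and 602 with all 24 libraries. The counts between cell types and for the interaction stayed within 1.5 times. The cause of these changes was not tested.

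Signs turned for log2 fold changes that were not called. For Gimap9 between cell types in WT the value was -0.0218 with DESeq2, -0.0212 with RLE factors, -0.101 with upper quartile factors, -0.176 with library totals, -0.00457 with no filter, and -0.0552 to 0.123 with a library left out. In TTPΔARE mice Gimap9 had -0.11 with library totals, -0.00405 with the block within genotype, and -0.023 to 0.256 with a library left out. For the interaction, Gimap5 had 0.0636 with DESeq2, 0.0632 with RLE factors, 0.107 with upper quartile factors, 0.0771 with library totals, 0.0409 with no filter, 0.0618 with all 24 libraries, and -0.114 to 0.182 with a library left out. Gimap9 had 0.0642, 0.0637, 0.11, 0.0655, 0.0373 and 0.0786 in that order, and -0.0932 to 0.186. With a library left out Gimap3 ranged from -0.208 to 0.688 there and Gimap7 from -0.0703 to 0.287. Between ages Gimap1 had -0.000896 with DESeq2, -0.000499 with RLE factors, -0.0556 with upper quartile factors, -0.0578 with library totals, and -0.00463 to 0.222 with a library left out. Gimap6 had 0.00801 with no filter and -0.136 to 0.103, and Gimap9 -0.162 to 0.0872. In MPP3 cells Gimap1 had -0.0135 with library totals and -0.0759 to 0.0971, Gimap6 -0.0316 to 0.142 and Gimap8 -0.0526 to 0.343.

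The replicate block ties same-numbered libraries of all groups in a fit. With it, 0 members were called in young HSCs, 1 in MPP3 cells, 2 (Gimap3 and Gimap7) were past the limits in middle-aged HSCs and 2 between ages, and 4 were called between cell types in WT, 7 in TTPΔARE and 0 for the interaction. Same-numbered libraries of the genotypes deviated together less (r between -0.163 and 0.198), and for the cell types in WT r lay between 0.0655 and 0.198, so these numbers are not read as pairs. A library correlated best with its own number in 0 of 8 cases for the genotypes in young HSCs, 2 of 8 in MPP3 cells, 3 of 6 in middle-aged HSCs, 5 of 8 for the cell types in WT and 8 of 8 in TTPΔARE, which is a hint from the data. With a block within genotype, chosen after seeing the data, 6 members were called between cell types in WT, Gimap7 (adjusted p = 0.0369) and Gimap6 beside the 4. Replicate numbers, few libraries a group and unstated strand settings limit these comparisons.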
